A study of Mus musculus with 18 samples.

Results

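The genes described here are 10 members of the YAP and TEAD gene regulatory system, measured by RNA-seq in cancer cells of 2 mouse lines. They were chosen by name and comprise the coactivator genes Yap1 and Wwtr1 (the gene of TAZ), the DNA-binding factor gene Tead1, the pathway regulators Lats2, Amotl2 and Ajuba, and the target genes Cyr61, Ctgf, Ankrd1 and Axl. All 10 were found, among 24455 genes in the table of one line and 24532 in that of the other, and Ctgf and Cyr61 are listed there under these older names of Ccn2 and Ccn1. The study asked whether the transcription factor Prrx1 in fibroblasts shapes how fibroblasts act on tumor cells. GFP-tagged 168FARN cells, a mouse breast cancer line, formed spheroids in hanging drops, without other cells (alone) or with cancer-associated fibroblasts from MMTV-PyMT mice (MMTVCAFs), whose mammary tumors arise from a viral oncogene under a mammary promoter. GFP-tagged LLC1 cells, a mouse lung cancer line, were grown alone or with wound healing fibroblasts taken from dorsal wounds at day 10. The fibroblasts outnumbered the cancer cells by 3 to 1 and carried either a control guide (WT, SgNS in the labels) or a guide that deleted Prrx1 by CRISPR/Cas9 (sgPrrx1). Per the study's methods, the GFP-tagged cancer cells were then separated from the trypsin-treated spheroids by FACS. Each line had 3 groups (alone, WT and sgPrrx1) of 3 libraries, 18 libraries in all. Only the fibroblasts received guides. The labels do not mention the sort, another passage of the study speaks of GFP-expressing fibroblasts in these spheroids, and whether the cells grown alone were sorted too is not stated. What the sorted fraction held besides cancer cells therefore cannot be told from these sources.

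YAP and TAZ are transcriptional coactivators that have no DNA-binding domain of their own and act mainly through TEAD factors. The Hippo kinase cascade, which ends in LATS1 and LATS2, phosphorylates them and keeps them out of the nucleus, and cell density, matrix stiffness and actin tension act on this step. Their best known target genes encode matrix-associated and cytoskeletal proteins, and several targets, Lats2 and Amotl2 among them, encode inhibitors of the pathway. Activity is set largely by the location and phosphorylation of the proteins, which RNA counts do not measure.

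The promoters of the genes are shown here because the TEAD binding motif is the sequence feature that links them. RefSeq start-site windows (GRCm38.p6, 250 bases before to 50 after the start) were found for 8 of the 10 genes, in 10 windows, while those of Ctgf and Tead1 were not used here. The motif GGAATG, read on both strands, occurred in a window of 8 of these 8 genes and in 9 of the 10 windows, against 14.7% of all 32851 windows. The motifs TGANTCA (AP-1) and the CArG box, bound by SRF, occurred in 0 of the 10 windows, against 7.81% and 1.63% of all windows. A match describes the letters of the window and does not show that a factor binds there. The windows of Cyr61 (chr3:145649936-145650235, minus strand), Ankrd1 (chr19:36119795-36120094, minus strand) and Amotl2 (chr9:102717554-102717853, plus strand) are printed whole, since of the genes with a window these 3 had the largest changes with WT fibroblasts in 168FARN, with the motif or its reverse complement in capitals:
Cyr61: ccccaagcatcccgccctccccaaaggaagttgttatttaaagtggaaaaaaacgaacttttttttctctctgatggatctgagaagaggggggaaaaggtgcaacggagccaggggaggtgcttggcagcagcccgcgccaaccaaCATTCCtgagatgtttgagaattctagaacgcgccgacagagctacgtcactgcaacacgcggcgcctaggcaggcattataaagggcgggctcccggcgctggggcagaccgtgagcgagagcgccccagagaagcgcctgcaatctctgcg
Ankrd1: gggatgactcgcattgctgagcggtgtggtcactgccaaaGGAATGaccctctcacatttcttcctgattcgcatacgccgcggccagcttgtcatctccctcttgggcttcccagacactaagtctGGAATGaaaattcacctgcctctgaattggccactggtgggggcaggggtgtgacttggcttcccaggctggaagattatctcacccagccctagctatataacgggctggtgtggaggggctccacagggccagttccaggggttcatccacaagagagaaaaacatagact
Amotl2: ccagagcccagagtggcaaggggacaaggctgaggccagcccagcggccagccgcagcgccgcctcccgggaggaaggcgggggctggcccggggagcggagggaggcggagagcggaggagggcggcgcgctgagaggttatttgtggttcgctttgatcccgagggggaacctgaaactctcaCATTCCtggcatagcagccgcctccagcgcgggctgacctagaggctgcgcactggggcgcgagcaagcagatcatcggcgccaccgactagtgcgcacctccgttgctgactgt
For the other genes a stretch of 26 bases around each match is given, with the match in capitals, at chr9:8004722-8004747 for Yap1, chr3:57576031-57576056 for Wwtr1, chr14:57746104-57746129 for Lats2, chr14:54577832-54577857 and chr14:54577810-54577835 for Ajuba and chr7:25788951-25788976 for Axl, each gene on the minus strand and written along it:
Yap1: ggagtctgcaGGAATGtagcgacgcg
Wwtr1: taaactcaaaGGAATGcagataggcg
Lats2: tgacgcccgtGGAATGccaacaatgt
Ajuba, first match: ttgatggataCATTCCacagtgcccc
Ajuba, second match: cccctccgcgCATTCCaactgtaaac
Axl: aaattctacaGGAATGtttaccagac
In the same build the genes lay at chr9:7931999-8004638 (Yap1), chr3:57455644-57575910 (Wwtr1), chr7:112679356-112906784 (Tead1), chr14:57689662-57746212 (Lats2), chr9:102717091-102733418 (Amotl2), chr14:54567469-54577661 (Ajuba), chr3:145646971-145649985 (Cyr61), chr10:24595442-24598683 (Ctgf), chr19:36111965-36119844 (Ankrd1) and chr7:25756500-25788924 (Axl). Ankrd1 and Ajuba each held 2 matches, whose first bases lay at -210 and -123 relative to the start site in Ankrd1 and at -186 and -164 in Ajuba. The match began at -103 in Cyr61, at -65 in Amotl2 and at -233 in Axl, and in Lats2 it lay just after the start.

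Total counts ran from 48315037 to 68933002 per library in 168FARN and from 66129117 to 103997557 in LLC1. In LLC1, sgPrrx1 replicate 3 stood apart. Its log2 CPM (counts scaled to the total of the library) correlated at 0.954 with its 2 replicates, which correlated at 0.995 with each other. LLC1 counts of calls, and many but not all of the values that it moved, are therefore given with and without it. Nothing in the sources used here says that replicates came from separate cultures, so p-values measure only the spread between these libraries. Prrx1 itself was read in the cancer cell libraries of all groups. In 168FARN it was at 87.2 to 89.7 CPM alone, 127.5 to 130.1 CPM with WT and 110.9 to 113.1 CPM with sgPrrx1 fibroblasts. These groups did not overlap. In LLC1 Prrx1 ran from 114 to 227 CPM, lowest in sgPrrx1 replicate 3. Since only fibroblasts were edited and libraries of fibroblasts alone were not analysed here, these values do not check the deletion. The summed level of 12 fibroblast markers ran from 151 to 156 CPM in 168FARN alone, from 1067 to 1147 CPM with WT fibroblasts and from 274 to 283 CPM with sgPrrx1 fibroblasts. Of these markers, Col1a2 was at 0.103 ± 0.0211, 148 ± 7.73 and 12.9 ± 1.57 CPM in these groups (mean ± SD, n = 3 here and below), while the mean levels of Thy1, Lum and Fap were under 1 CPM in every group. In LLC1 the sum ran from 1638 to 1719 CPM alone, from 1189 to 1213 CPM with WT and from 1481 to 1567 CPM with sgPrrx1 fibroblasts. Most of it was Col3a1, which LLC1 cells alone held at 1579 ± 39.5 CPM, whereas Col1a2 went from 0.0296 ± 0.0324 alone to 8.68 ± 0.538 CPM with WT fibroblasts and Thy1, Fap and Postn stayed under 1 CPM. Of 6 epithelial markers, 168FARN held Krt8 at 331 ± 12.5 CPM alone but Epcam, Cdh1 and Krt18 at group means under 1 CPM. Krt19 had 0 counts in 168FARN alone and with sgPrrx1 fibroblasts and was at 3.09 ± 0.162 CPM with WT fibroblasts, and the sum of the list in LLC1 was at most 0.755 CPM. Of 4 leukocyte markers, Ptprc and Adgre1 were at or near 0 in both lines, and the list, mostly Cd68 and in 168FARN also Lyz2, moved with the groups. Its sum in 168FARN was 47.3 to 51.3 CPM alone, 27.6 to 30.6 CPM with WT and 33.8 to 34.5 CPM with sgPrrx1 fibroblasts. In LLC1 it was 16.0 to 17.3 CPM alone, 36.4 to 38.3 CPM with WT and 36.4 to 64.8 CPM with sgPrrx1 fibroblasts, highest in replicate 3. There Cd68 had log2 fold changes against alone of 1.18 (SE 0.203, adjusted p = 0.0124) with WT and 1.51 (SE 0.204, adjusted p = 0.0105) with sgPrrx1 fibroblasts, or 1.19 (adjusted p = 8.58e-06) and 1.21 (adjusted p = 2.89e-05) without that library. Of 4 endothelial markers, Cdh5 reached 5.94 ± 0.712 CPM in 168FARN with WT fibroblasts and Kdr 6.04 ± 0.497 CPM in LLC1 with WT fibroblasts. The part of these other cell type markers in the results below was not tested. In RNA from many cells, fewer cells of a kind and less RNA per cell cannot be told apart.

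Within a library, levels of different genes were compared per length, as RPKM (CPM per kilobase of exon). In 168FARN alone the order from high to low was Axl (188 ± 48.9 RPKM), Cyr61 (119 ± 1.62 RPKM), Wwtr1 (34.0 ± 3.54 RPKM), Tead1, Yap1, Ajuba, Amotl2, Ankrd1, Lats2 and Ctgf, which had no count. The ranges of Tead1 and Yap1 overlapped, at 14.1 ± 0.602 and 14.1 ± 0.0546 RPKM, as did those of Amotl2 and Ankrd1, and the other neighbors in the order did not overlap. With WT fibroblasts Cyr61 stood first in 168FARN at 316 ± 4.36 RPKM, and Ankrd1, at 39.7 ± 2.34 RPKM, overlapped with Wwtr1 at 40.4 ± 1.23 RPKM. In LLC1 alone Cyr61 (209 ± 6.21 RPKM) and Axl (181 ± 60.5 RPKM) overlapped at the top, followed by Wwtr1 (75.9 ± 6.03 RPKM), Tead1, Yap1, Amotl2, Ankrd1, Ajuba, Lats2 and Ctgf (0.261 ± 0.0564 RPKM). Wwtr1 thus lay above Yap1 in both lines, with a ratio of their RPKM levels of 2.41 ± 0.243 in 168FARN alone and 3.63 ± 0.160 in LLC1 alone. Counted per longest transcript instead of per summed exons, Yap1 alone was at 24.7 RPKM in 168FARN and 36.6 RPKM in LLC1, against 15.9 and 34.6 RPKM for Tead1. The ranges did not overlap in 168FARN and overlapped in LLC1, at 35.3 to 38.0 RPKM for Yap1 and 27.4 to 39.5 RPKM for Tead1. Per longest transcript the ratio of Wwtr1 to Yap1 was 1.40 ± 0.141 and 2.11 ± 0.0930.

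In 168FARN cells, 8 of the 10 genes were higher with WT fibroblasts than alone, by 1.19-fold for Wwtr1 up to 6.68-fold for Ankrd1 and from no count at all for Ctgf. Among all genes tested 33.4% were called higher and 30.7% lower (edgeR quasi-likelihood test, adjusted p under 0.05). With sgPrrx1 fibroblasts 6 genes (Cyr61, Ctgf, Ankrd1, Lats2, Amotl2 and Ajuba) were higher than alone and none was lower, against a background of 25.7% higher and 24.1% lower. Between the cocultures, 8 genes were lower with sgPrrx1 than with WT fibroblasts and none was higher, against a background of 33.1% lower and 26.9% higher. The median log2 fold change of the 10 genes was 0.76 for WT against alone, 0.23 for sgPrrx1 against alone and -0.51 for sgPrrx1 against WT, beside 0.00606, 0.00458 and -0.03 over all genes tested.

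Among the coactivators, Wwtr1 was at 177, 167 and 144 CPM in the 3 libraries alone, at 199.8, 190.5 and 189 CPM with WT and at 182, 184 and 151 CPM with sgPrrx1 fibroblasts. Its WT libraries lay above all others, and the alone and sgPrrx1 libraries overlapped. The log2 fold change was 0.25 (SE 0.0822, adjusted p = 0.0200) for WT against alone. That call was lost without alone replicate 3 (adjusted p = 0.0897) or WT replicate 1 (adjusted p = 0.0709). For sgPrrx1 against WT it was -0.16 (SE 0.0822, adjusted p = 0.110). This change passed with no scaling factors (adjusted p = 0.0388) or with a replicate block (adjusted p = 0.0150). Yap1 was at 131, 130.3 and 129.7 CPM alone, at 168, 169 and 166 CPM with WT and at 62.3, 131 and 133 CPM with sgPrrx1 fibroblasts. Its alone and WT libraries were tight and did not overlap, while sgPrrx1 replicate 1 held less than any other library and replicates 2 and 3 lay just above the level alone. The precision for Yap1 turned on that library. The log2 fold change of Yap1 for WT against alone was 0.37 (SE 0.211, adjusted p = 0.152) with it and 0.37 (SE 0.0267, adjusted p = 1.44e-06) without it. For sgPrrx1 against WT it was -0.62 (SE 0.212, adjusted p = 0.0252) with that library and -0.34 (SE 0.0301, adjusted p = 9.40e-06) without it. The call for sgPrrx1 against WT was lost when any one WT library was left out, with adjusted p of 0.0585, 0.0544 and 0.0516 for Yap1 without replicates 1, 2 and 3, and with only the 2 groups compared (adjusted p = 0.0628). Tead1, a DNA-binding partner of both coactivators, was at 155, 154 and 167 CPM alone, 188, 186 and 200.1 CPM with WT and 169.6, 164 and 163 CPM with sgPrrx1 fibroblasts. Its WT libraries were the highest without overlap, and it rose by 0.27 (SE 0.0392, adjusted p = 1.08e-04) on the log2 scale against alone and changed by -0.21 (SE 0.0392, adjusted p = 7.87e-04) from WT to sgPrrx1.

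For WT against alone, the 3 regulators had larger fold changes than the 3 factor genes, a difference that was not itself tested. Lats2, a kinase that phosphorylates YAP and TAZ, was at 26.3, 26.7 and 27.1 CPM alone, 45.0, 43.0 and 44.5 CPM with WT and 35.2, 33.4 and 32.0 CPM with sgPrrx1 fibroblasts, so that the sgPrrx1 group lay between the other two without overlap. Its log2 fold changes were 0.73 (SE 0.0389, adjusted p = 4.23e-08) for WT against alone and -0.40 (SE 0.0384, adjusted p = 5.53e-06) for sgPrrx1 against WT. Amotl2, a junction protein of the angiomotin family that binds and retains YAP, was at 38.9, 37.8 and 36.1 CPM alone, 71.9, 70.1 and 72.1 CPM with WT and 41.8, 41.2 and 40.9 CPM with sgPrrx1 fibroblasts. The sgPrrx1 libraries of Amotl2 lay close above those alone, with a log2 fold change of 0.14 (SE 0.0315, adjusted p = 0.00438), against 0.92 (SE 0.0312, adjusted p = 1.17e-09) for WT against alone and -0.79 (SE 0.0310, adjusted p = 8.89e-09) for sgPrrx1 against WT. Ajuba, a LIM protein that binds and inhibits LATS kinases, was at 23.9, 24.3 and 23.5 CPM alone, 43.4, 41.0 and 40.3 CPM with WT and 33.2, 30.9 and 31.9 CPM with sgPrrx1 fibroblasts. It also lay between the other groups with sgPrrx1 fibroblasts, with no overlap, and its log2 fold changes were 0.80 (SE 0.0391, adjusted p = 2.24e-08) and -0.38 (SE 0.0384, adjusted p = 8.27e-06) for the same comparisons.

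The 3 largest changes, those of Ctgf, Ankrd1 and Cyr61, were in target genes. Cyr61, which encodes a secreted matrix-associated protein, was at 245, 238 and 241 CPM alone, 632, 642 and 649.6 CPM with WT and 316, 324 and 316 CPM with sgPrrx1 fibroblasts. The 3 groups were far apart relative to their spread, with log2 fold changes of 1.41 (SE 0.0228, adjusted p = 4.12e-12) for WT against alone, 0.40 (SE 0.0224, adjusted p = 1.04e-07) for sgPrrx1 against alone and -1.01 (SE 0.0226, adjusted p = 1.76e-10) for sgPrrx1 against WT. Ankrd1, a nuclear and sarcomeric ankyrin repeat protein, was at 10.9, 10.3 and 10.3 CPM alone, 67.7, 74.8 and 67.6 CPM with WT and 33.4, 34.3 and 34.4 CPM with sgPrrx1 fibroblasts. Its groups did not overlap, and its log2 fold changes were 2.74 (SE 0.0473, adjusted p = 5.97e-12), 1.70 (SE 0.0475, adjusted p = 4.60e-10) and -1.04 (SE 0.0427, adjusted p = 1.23e-08) in the same order. Ctgf, the close relative of Cyr61 and a matricellular protein, had 0 counts in the 3 libraries alone, 384, 338 and 246 counts with WT fibroblasts and 10, 18 and 14 counts with sgPrrx1 fibroblasts. Against a floor of 3 counts per library it was at least 90.4-fold higher with WT and at least 4.39-fold higher with sgPrrx1 fibroblasts than alone, and from WT to sgPrrx1 it changed by -4.34 (SE 0.195, adjusted p = 1.71e-07) on the log2 scale. Per length, Ctgf with WT fibroblasts was at 2.06 ± 0.115 RPKM, against 316 ± 4.36 RPKM for Cyr61.

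Axl, a receptor tyrosine kinase and reported YAP target, passed in no comparison in 168FARN. Its libraries held 1232, 804 and 808 CPM alone, 1383, 888 and 861 CPM with WT and 753, 1171 and 733 CPM with sgPrrx1 fibroblasts. One library of each group lay well above its 2 replicates, and the 3 groups overlapped. The log2 fold changes of Axl were 0.14 (SE 0.233, adjusted p = 0.620) for WT against alone and -0.24 (SE 0.233, adjusted p = 0.405) for sgPrrx1 against WT. The fibroblast marker sum given above was also highest with WT fibroblasts, next highest with sgPrrx1 fibroblasts and lowest alone. That is the same order as in Cyr61, Ctgf, Ankrd1, Lats2, Amotl2 and Ajuba. Not every marker followed it. Of 10 markers tested, 7 were higher and 1, Pdgfrb, lower with sgPrrx1 fibroblasts than alone, beside 25.7% and 24.1% of all genes. Pdgfrb changed by -0.69 (SE 0.0384, adjusted p = 9.92e-08) on the log2 scale. Between the cocultures 9 were lower, beside 33.1% of all genes, and Mfap5 did not pass (0.08, SE 0.0633, adjusted p = 0.290). The part of the markers in these changes was not tested.

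**Figure D1:**
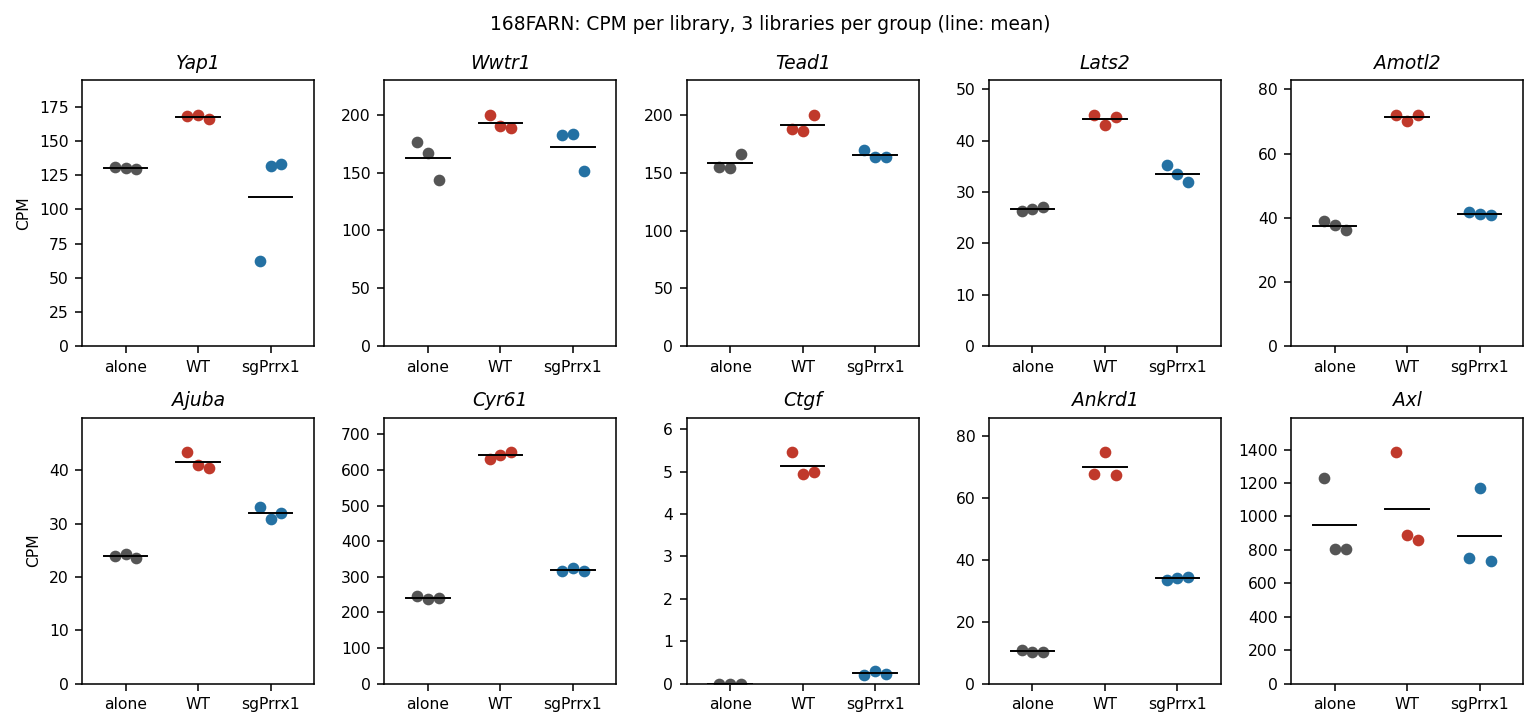
CPM of the 10 genes in 168FARN cancer cells on a linear axis from 0, with 1 point per library, 3 libraries per group, and a black line at the group mean. The 3 groups lie apart for Cyr61, Ctgf, Ankrd1, Lats2, Amotl2 and Ajuba, highest with WT fibroblasts, while Yap1 has 1 low sgPrrx1 library at 62.3 CPM and Axl overlaps between all groups.

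In LLC1 cells edgeR called few of the same genes, and with all libraries it called none higher. For WT against alone in counts simulated with each line's spread, edgeR recovered 62% of log2 changes of 0.5 and 76% of 1 in 168FARN. In LLC1 it recovered 0% and 16%, so a gene not called there may still have changed. Of the 10 genes, edgeR called 1 for WT against alone, where 4.25% of all genes tested were called higher and 4.58% lower, and 1 for sgPrrx1 against alone, where 2.01% were called higher and 2.31% lower. Both were falls of Cyr61. In these 2 comparisons DESeq2 called 2 and 1 genes, all lower (17.7% and 15.1% of all genes), and limma's voom with quality weights called 5 lower in the first and 5 lower and 2 higher, Ajuba and Yap1, in the second (58.6% and 48% of all genes). Between the cocultures edgeR called 0 of the 10 genes (0 also at an unadjusted p under 0.05), where 0% of all genes were called higher and 0.0544% lower; DESeq2 called 0 (3.89% of all genes) and voom 5, 3 of them higher (36.4% of all genes). Without sgPrrx1 replicate 3, the counts were 5 genes for WT against alone, all lower, 4 for sgPrrx1 against alone, 3 lower and 1 higher, and 0 between the cocultures. The share of all genes called in either direction then rose to 44.2%, 26.7% and 5.69% in the 3 comparisons. The median log2 fold changes of the 10 genes were -0.16, -0.31 and -0.10 with that library and -0.15, -0.13 and 0.11 without it, in the order WT against alone, sgPrrx1 against alone and sgPrrx1 against WT.

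Cyr61 in LLC1 was at 414, 418 and 437 CPM alone, 277, 267 and 287 CPM with WT and 256, 257 and 341 CPM with sgPrrx1 fibroblasts. All coculture libraries lay below those alone, and the cocultures overlapped. It fell by 0.61 on the log2 scale with WT fibroblasts (SE 0.123, adjusted p = 0.0216) and by 0.57 with sgPrrx1 fibroblasts (SE 0.123, adjusted p = 0.0420), and the values without sgPrrx1 replicate 3 were -0.60 (SE 0.0506, adjusted p = 8.64e-05) and -0.71 (SE 0.0575, adjusted p = 1.83e-04). Both calls were lost when any one of the alone or WT libraries was left out, and the one with sgPrrx1 fibroblasts also without sgPrrx1 replicate 1 or 2. Over all alternatives the adjusted p of Cyr61 ran from 1.24e-06 to 0.0929 with WT and from 6.83e-07 to 0.179 with sgPrrx1 fibroblasts. Amotl2 was at 107, 104 and 103 CPM alone, 70.9, 74.2 and 67.1 CPM with WT and 76.7, 75.4 and 33.9 CPM with sgPrrx1 fibroblasts. Every coculture library was lower than every library alone, and the log2 fold change for WT against alone was -0.56 (SE 0.267, adjusted p = 0.242) with all 9 libraries and -0.55 (SE 0.0493, adjusted p = 1.05e-04) without sgPrrx1 replicate 3. For sgPrrx1 against alone it was -0.75 (SE 0.268, adjusted p = 0.143) and -0.45 (SE 0.0555, adjusted p = 0.00104) in the same order. Axl was at 1090.1, 1084 and 559 CPM alone, 459, 487 and 433 CPM with WT and 545, 554 and 769 CPM with sgPrrx1 fibroblasts. The third library alone lay far below its replicates but above all WT libraries. For WT against alone Axl had a log2 fold change of -0.99 (SE 0.256, adjusted p = 0.0503) with all libraries, -0.97 (SE 0.212, adjusted p = 0.00631) without sgPrrx1 replicate 3 and -1.21 (adjusted p = 0.0194) without alone replicate 3.

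Among the factor genes, edgeR made no call in LLC1 with all libraries. Yap1 was at 194, 200.5 and 186 CPM alone, 198, 207 and 194 CPM with WT and 220.3, 224 and 156 CPM with sgPrrx1 fibroblasts. Its groups overlapped, with a log2 fold change for sgPrrx1 against alone of 0.05 (SE 0.139, adjusted p = 0.846) with all libraries and 0.21 (SE 0.0545, adjusted p = 0.0241) without sgPrrx1 replicate 3, whose Yap1 level was the lowest of all. Wwtr1 was at 368, 389 and 332 CPM alone, 284, 306 and 303 CPM with WT and 326, 326 and 167 CPM with sgPrrx1 fibroblasts. All WT libraries lay below those alone, with a log2 fold change of -0.29 (SE 0.231, adjusted p = 0.512) and, without sgPrrx1 replicate 3, -0.27 (SE 0.0606, adjusted p = 0.00688). Tead1 was at 366, 394 and 273 CPM alone, 241, 282 and 225 CPM with WT and 328, 316 and 68.0 CPM with sgPrrx1 fibroblasts. Its alone and WT ranges overlapped, and of the 10 genes it was the one in which sgPrrx1 replicate 3 lay furthest below its replicates. The log2 fold change of Tead1 for WT against alone was -0.47 (SE 0.486, adjusted p = 0.627) with that library and -0.45 (SE 0.130, adjusted p = 0.0213) without it.

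Of the other genes edgeR called none in LLC1 with all libraries. Ankrd1 was at 26.4, 27.3 and 27.5 CPM alone, 26.8, 24.8 and 27.2 CPM with WT and 23.6, 23.4 and 24.2 CPM with sgPrrx1 fibroblasts. The sgPrrx1 libraries were the lowest, with a log2 fold change against alone of -0.19 (SE 0.0811, adjusted p = 0.204), or -0.20 (SE 0.0594, adjusted p = 0.0410) without sgPrrx1 replicate 3. Ctgf had 44, 66 and 46 counts alone, 67, 51 and 65 counts with WT and 68, 47 and 28 counts with sgPrrx1 fibroblasts, all under 1 CPM. In CPM the alone libraries overlapped with both cocultures, and the WT libraries lay above the sgPrrx1 libraries. Its log2 fold change was 0.29 (SE 0.239, adjusted p = 0.526) for WT against alone and -0.50 (SE 0.241, adjusted p = 0.445) for sgPrrx1 against WT. Without sgPrrx1 replicate 3 these were 0.30 (SE 0.236, adjusted p = 0.334) and -0.41 (SE 0.264, adjusted p = 0.324). Ajuba, at 46.4 ± 1.10 CPM alone, 47.2 ± 0.785 CPM with WT and 47.5 ± 2.72 CPM with sgPrrx1 fibroblasts, and Lats2, at 46.7 ± 4.72, 45.6 ± 3.25 and 40.2 ± 16.3 CPM in the same groups, passed in no comparison in edgeR with or without that library. In contrast, voom called Ajuba for sgPrrx1 against alone (0.093, adjusted p = 0.0371). For WT against alone the log2 fold change was 0.03 (SE 0.0810) for Ajuba and -0.04 (SE 0.283) for Lats2, so the data bound the former more closely.

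**Figure D2:**
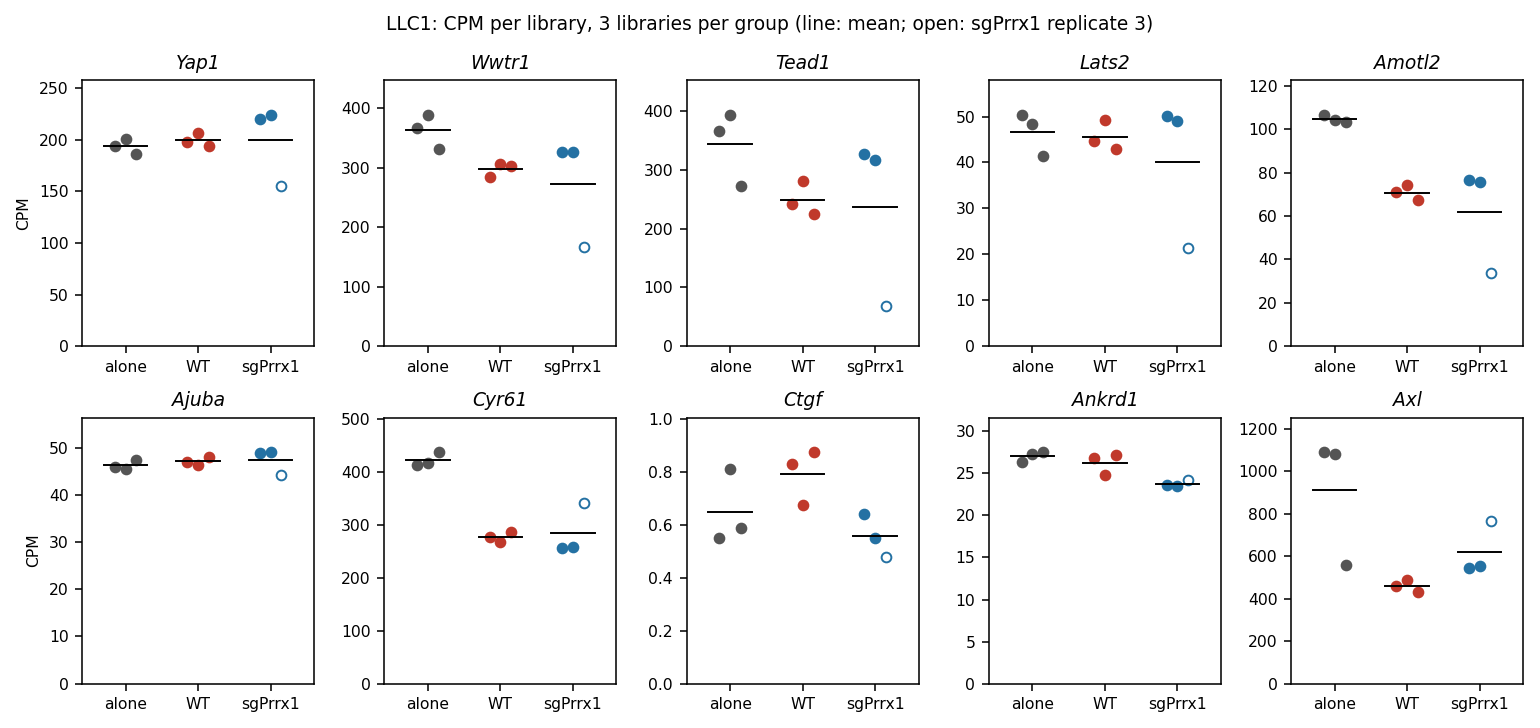
CPM of the 10 genes in LLC1 cancer cells on a linear axis from 0, with 1 point per library and a black line at the group mean of 3 libraries, where the open point is sgPrrx1 replicate 3. That library lies far below its replicates for Tead1 (68.0 CPM), Wwtr1, Lats2 and Amotl2 and above them for Cyr61 and Axl, and the coculture libraries of Cyr61 and Amotl2 lie below those alone.

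**Figure D3:**
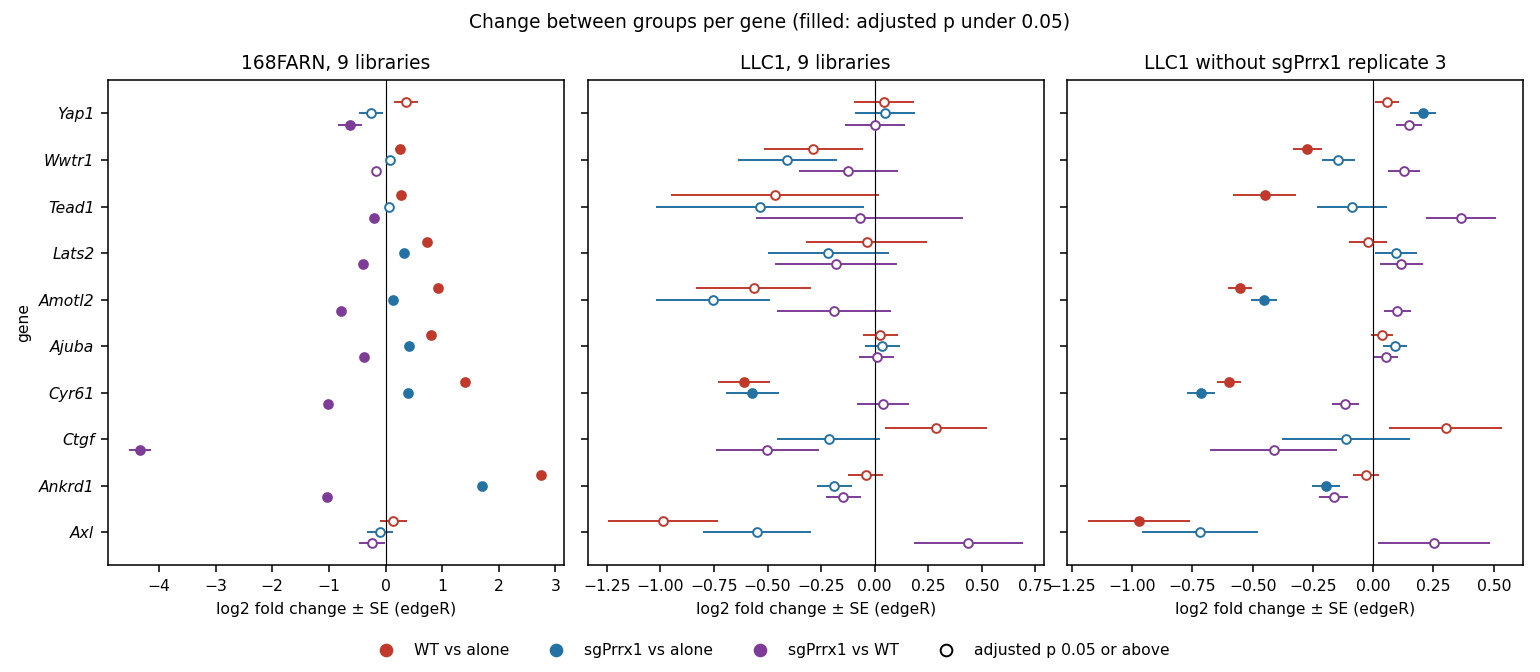
Log2 fold change of each gene with its SE as a horizontal bar, for 168FARN (left), LLC1 (middle) and LLC1 without sgPrrx1 replicate 3 (right), with filled points where the adjusted p of edgeR is under 0.05 and an axis range of its own for each panel. The 168FARN changes against alone for Ctgf are left out because it had 0 counts alone, the 168FARN points for WT against alone lie to the right of 0, and those of LLC1 that are filled lie to the left of 0 except Yap1 in the right panel.

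The difference between the lines was tested itself, as the change in LLC1 minus the change in 168FARN in a joint fit of the 18 libraries. For WT against alone it passed for 6 of the 10 genes (Cyr61, Ctgf, Ankrd1, Axl, Amotl2 and Ajuba), where 29.4% of all genes passed, and in each the change was lower in LLC1. That of Axl, -1.12 (SE 0.382, adjusted p = 0.0379), was lost in 8 of the refits without 1 library, with adjusted p from 0.0554 to 0.120. For sgPrrx1 against alone it passed for 4 (Cyr61, Ctgf, Ankrd1 and Ajuba), where 12.1% passed. That of Amotl2 was -0.90 (SE 0.295, adjusted p = 0.0627) there. It passed with a replicate block (adjusted p = 0.0443), DESeq2 (adjusted p = 0.0190), voom (adjusted p = 2.96e-07) or without any one LLC1 sgPrrx1 library. For sgPrrx1 against WT it passed for Cyr61, Ctgf, Ankrd1 and Ajuba, where 19.3% of all genes passed, and the change from WT to sgPrrx1 was the less negative one in LLC1. The 3 comparisons share libraries, so they are not independent. For Cyr61 the differences were -2.02 (SE 0.112, adjusted p = 7.07e-09) for WT against alone and 1.02 (SE 0.111, adjusted p = 1.85e-05) for sgPrrx1 against WT. Without LLC1 sgPrrx1 replicate 3 the counts were 9, 5 and 8 genes, where 52.5%, 28% and 44.5% of all genes passed. The difference for WT against alone then also passed for Wwtr1, at -0.49 (SE 0.111, adjusted p = 0.00143), for Tead1, at -0.69 (SE 0.138, adjusted p = 5.39e-04), and for Lats2, at -0.72 (SE 0.0871, adjusted p = 4.55e-06). The line, the source of the fibroblasts and the count table went together and cannot be told apart.

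Other genes of the pathway were examined from lists. Of 16 further YAP and TAZ target genes, all tested in 168FARN, edgeR called 13 higher and 2 lower with WT fibroblasts than alone, with a median log2 fold change of 0.82, where 33.4% of all genes were higher and 30.7% lower. For sgPrrx1 against WT it called 14 lower and 1 higher, with a median of -0.64, where 33.1% of all genes were lower and 26.9% higher. For sgPrrx1 against alone 6 were higher and 5 lower, with a median of -0.00595. Of all genes 25.7% and 24.1% were called there, so these counts stood nearer to those of all genes. Nt5e, an ecto-5′-nucleotidase, went from 19.5 ± 0.668 CPM alone to 63.8 ± 2.46 CPM with sgPrrx1 fibroblasts, a log2 fold change of 1.71 (SE 0.0386, adjusted p = 9.02e-11). The matrix protein gene Ccdc80 had a log2 fold change of 1.44 (SE 0.387, adjusted p = 0.00993) in the same comparison. F3, tissue factor, was lower in both cocultures, with log2 fold changes against alone of -0.09 (SE 0.0294, adjusted p = 0.0152) with WT and -0.69 (SE 0.0301, adjusted p = 1.53e-08) with sgPrrx1 fibroblasts. In the latter comparison Arhgef17 was also lower, at -0.46 (SE 0.0313, adjusted p = 5.41e-07). Tgfb2, a TGF-beta ligand, was under 1 CPM and fell from 0.790 ± 0.105 CPM with WT to 0.0589 ± 0.0372 CPM with sgPrrx1 fibroblasts. Igfbp3, Rbms3 and Fjx1 had 0 counts alone and were at least 12.9-fold, 8.99-fold and 5.04-fold higher with WT fibroblasts. Asap1 went the other way, with log2 fold changes of -0.33 (SE 0.0805, adjusted p = 0.00430) for WT against alone and 0.27 (SE 0.0805, adjusted p = 0.0128) for sgPrrx1 against WT. In LLC1, 15 of these genes were tested, and F3 was the one that passed in edgeR, at -0.64 (SE 0.160, adjusted p = 0.0441) with WT and -0.76 (SE 0.160, adjusted p = 0.0405) with sgPrrx1 fibroblasts against alone. Of all genes 8.83% and 4.32% passed there. Without sgPrrx1 replicate 3 these values of F3 were -0.63 (adjusted p = 1.56e-04) and -0.58 (adjusted p = 9.02e-04). Both calls of F3 were lost with a replicate block (adjusted p = 0.0705 and 0.0625), no scaling factors (0.0769 and 0.0562) or no filter (0.0568 and 0.0516). They were also lost without any one of the other LLC1 libraries than sgPrrx1 replicate 3. The call with WT fibroblasts was lost with RLE scaling (adjusted p = 0.0555) or at least 10 counts in every library (adjusted p = 0.0573) as well. That with sgPrrx1 fibroblasts was lost with only the 2 groups compared (adjusted p = 0.164). DESeq2 called 5 and 3 of the 15 genes in these comparisons and voom 12 and 9, where they called 17.7% and 15.1% and 58.6% and 48% of all genes. Between the cocultures edgeR called 0 of them (3 at an unadjusted p under 0.05), beside 0.0544% of all genes, DESeq2 2 and voom 8 (3.89% and 36.4% of all genes). Without sgPrrx1 replicate 3 the counts were 3 higher and 8 lower for WT against alone, 1 higher and 4 lower for sgPrrx1 against alone and 1 lower between the cocultures, in fits that called 44.2%, 26.7% and 5.69% of all genes.

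Of 7 further TEAD and VGLL genes, 5 were tested in each line. In 168FARN, 4 were higher and 1 lower with WT fibroblasts than alone, where 64.1% of all genes were called, and 3 were lower and 1 higher for sgPrrx1 against WT, where 60% were. Against alone, 2 were higher and 2 lower with sgPrrx1 fibroblasts, with a median log2 fold change of -0.059, where 49.7% of all genes were called. Tead4 was at 26.7 ± 1.71 CPM alone, 46.3 ± 0.729 CPM with WT and 53.2 ± 0.603 CPM with sgPrrx1 fibroblasts, so that it was highest with sgPrrx1 fibroblasts, with a log2 fold change of 0.20 (SE 0.0398, adjusted p = 0.00108) against WT. Vgll3, a TEAD cofactor, was at 3.19 ± 0.527, 7.06 ± 0.238 and 2.18 ± 0.392 CPM in the same groups and changed by -1.69 (SE 0.146, adjusted p = 2.35e-06) from WT to sgPrrx1. Tead2, which rose by 0.43 on the log2 scale with WT fibroblasts, and Tead3, which changed by -0.33 from WT to sgPrrx1, passed in these comparisons. Vgll4, a competitor of YAP for TEAD binding, was lower with WT fibroblasts than alone, at -0.52 (SE 0.0671, adjusted p = 4.26e-05). In LLC1, Tead3 was lower with WT fibroblasts than alone, at -0.46 (SE 0.0892, adjusted p = 0.0183), and Vgll3, without a count alone, rose at least 10.7-fold, to 0.402 ± 0.104 CPM, where 8.83% of all genes were called. Both calls were kept without sgPrrx1 replicate 3 (adjusted p = 6.55e-04 for Tead3 and 0.00191 for Vgll3). The call of Vgll3 was lost with a replicate block (adjusted p = 0.0837) and without any one alone or WT library except alone replicate 3 (adjusted p from 0.0553 to 0.0911). That of Tead3 was kept with the block (adjusted p = 0.0357) and lost without any one alone or WT library (adjusted p from 0.0691 to 0.0908). In each of the other comparisons edgeR called 0 of the 5 (1 at an unadjusted p under 0.05). There DESeq2 called 1 for sgPrrx1 against alone and 1 between the cocultures (15.1% and 3.89% of all genes), and voom 3 and 2 (48% and 36.4%). Without sgPrrx1 replicate 3 the counts were 2 higher and 2 lower for WT against alone, 1 higher and 2 lower for sgPrrx1 against alone and 1 lower between the cocultures, beside 44.2%, 26.7% and 5.69% of all genes.

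The 21 genes of the Hippo kinases and their upstream regulators were examined in the same way in 168FARN. With WT fibroblasts 16 were higher and 1 lower than alone, with a median log2 fold change of 0.15, where 33.4% of all genes were higher and 30.7% lower. In sgPrrx1 against WT coculture 12 were lower and 4 higher, with a median of -0.12, where 33.1% of all genes were lower and 26.9% higher. For sgPrrx1 against alone 9 were higher and 4 lower, where 25.7% and 24.1% of all genes were, with a median of 0.09, or 0.07 with genes at 0 counts in 1 group set to their bound. The kinase gene Taok3 had a log2 fold change of 0.60 (SE 0.0563, adjusted p = 3.21e-06) for WT against alone, and Map4k4, a kinase that can phosphorylate LATS, -0.44 (SE 0.0249, adjusted p = 9.98e-08) for sgPrrx1 against WT. Wwc1, which encodes the scaffold KIBRA, was at 15.2 ± 1.06, 22.1 ± 1.23 and 29.3 ± 0.897 CPM alone, with WT and with sgPrrx1 fibroblasts and was thus highest with sgPrrx1 fibroblasts. Mob1b, a LATS cofactor, was lower with WT fibroblasts than alone, at -0.30 (SE 0.0643, adjusted p = 0.00164), and higher again with sgPrrx1 fibroblasts, at 0.39 (SE 0.0640, adjusted p = 3.09e-04). Limd1, of the same family as Ajuba, had a log2 fold change of 0.16 (SE 0.0436, adjusted p = 0.00728) in that comparison. Against alone, sgPrrx1 coculture had higher Sav1, the MST kinase adaptor, at 0.27 (SE 0.0372, adjusted p = 1.28e-04). It had lower Amot, Fat1 and Dchs1, at -0.36, -0.29 and -1.33, the last gene at under 1 CPM. Wtip and the protocadherin gene Fat4 had 0 counts alone and were at least 23.5-fold and 8.32-fold higher with WT fibroblasts, at 1.33 ± 0.140 and 0.472 ± 0.0968 CPM, and both were lower with sgPrrx1 than with WT fibroblasts. In LLC1 edgeR called 0 of the 19 genes tested in each comparison (1 at an unadjusted p under 0.05). Of all genes it called 8.83%, 4.32% and 0.0544%. DESeq2 called 0 in each, beside 17.7%, 15.1% and 3.89% of all genes, and voom 10, 7 and 8, beside 58.6%, 48% and 36.4%. Without sgPrrx1 replicate 3, 7 of 20 passed for WT against alone (2 higher and 5 lower), 1 for sgPrrx1 against alone and 1 between the cocultures, while 44.2%, 26.7% and 5.69% of all genes passed.

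**Figure D4:**
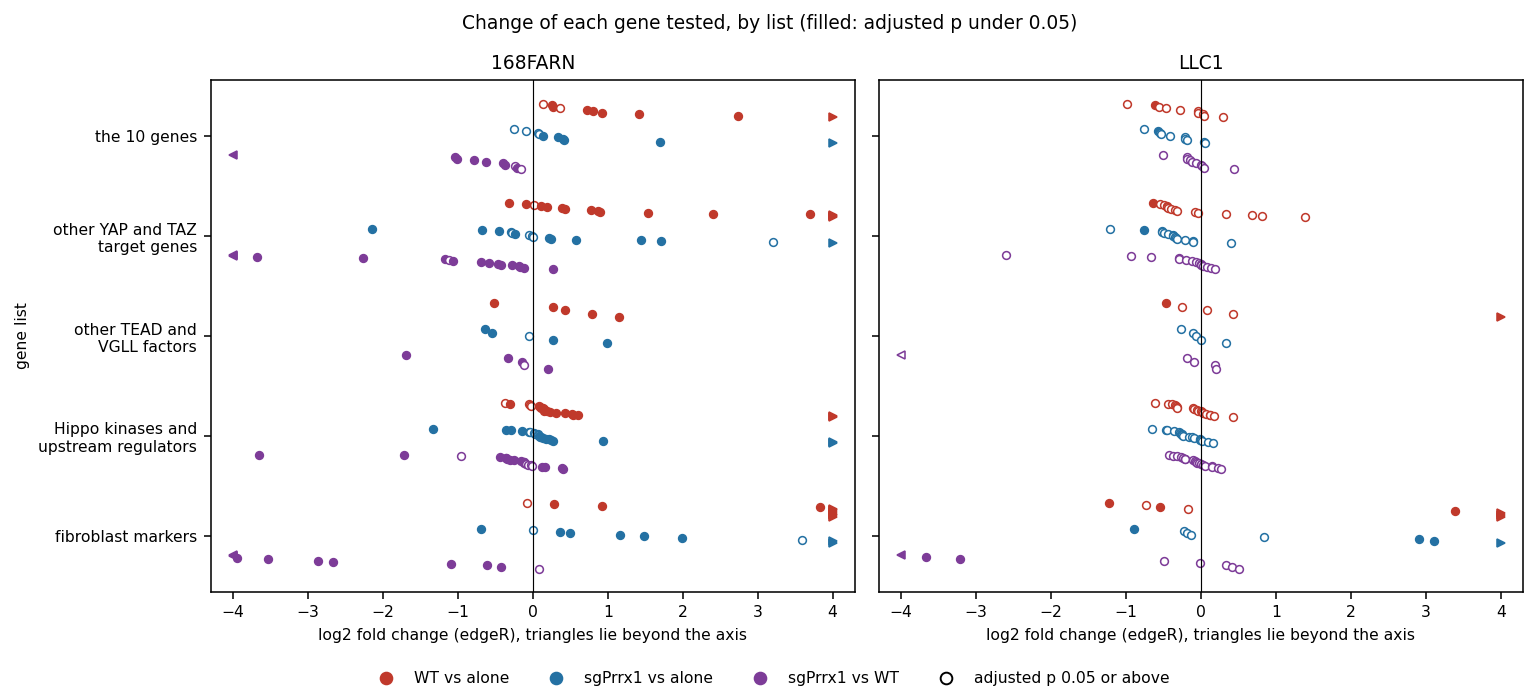
Log2 fold change of each gene tested in 5 lists, for 168FARN (left) and LLC1 (right), with filled points where the adjusted p of edgeR is under 0.05 and triangles for values beyond 4 on either side. In 168FARN the red points (WT against alone) of the first lists lie mostly to the right of 0 and the purple ones (sgPrrx1 against WT) mostly to the left, the fibroblast markers lie furthest out, and in LLC1 few points of the pathway lists are filled.

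The genes whose log2 CPM followed Cyr61 most closely over the 9 libraries of 168FARN were Fbln2 (Pearson's r = 0.9992), Col1a1 (r = 0.9987) and Rhno1 (r = 0.9984), among 10876 genes with a mean of at least 100 counts. Fbln2, a basement membrane and matrix protein, was at 18.7 ± 0.491, 265 ± 5.77 and 41.7 ± 0.608 CPM alone, with WT and with sgPrrx1 fibroblasts, and Col1a1 was at 3.74 ± 0.360, 161 ± 11.5 and 10.4 ± 0.207 CPM. Both belong to the fibroblast marker list above. Closest to Yap1 in 168FARN were Ddi2 (r = 0.9636), Wdr82 (r = 0.9408) and Ube2v1 (r = 0.9265). In LLC1 the closest to Cyr61 were Irf1 (r = 0.9951), Pisd-ps1 (r = 0.9949) and Acp6 (r = 0.9922), and the closest to Yap1 were Cdk12 (r = 0.9933), Polr3b (r = 0.9919) and Pom121 (r = 0.9896), among 11003 genes. The points of each correlation are 9 libraries in 3 groups, so that genes with the same group means correlate highly, and the values describe likeness of pattern.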

How the data were processed

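RNA of cancer cells from spheroids was sequenced as 100 base paired reads in 18 libraries, 3 for each of the 3 groups of 168FARN and of LLC1. Per the labels, the authors trimmed the reads with Trimmomatic, aligned them with STAR to mm10 and counted them per gene with HTSeq. The deposited counts, 1 table per line, were taken as raw here. The supplementary methods name a batch correction by ComBat-seq for bulk RNA-seq, and whether these counts had it is not stated. The same count above 0 stood in all 9 libraries for 72 genes in 168FARN and 61 in LLC1. The supplementary methods give versions of these tools in a section on mouse fibroblast and human cancer-associated fibroblast libraries. Whether they hold for the cancer cell libraries is not stated. The strand setting is not given in the sources used here, so reads of overlapping antisense genes cannot be told apart. Dates stood in place of 27 symbols per file, none of them a gene named here. Counts were tested as deposited with edgeR 4.0.16 in R 4.3.3 (quasi-likelihood test, two-sided, TMM scaling, filterByExpr, Benjamini-Hochberg over 13540 genes in 168FARN and 12873 in LLC1, threshold 0.05), with the 9 libraries of a line in 1 fit. All 10 genes passed the filter on low counts in both lines. The difference between lines was tested as an interaction over 18 libraries and 14365 genes. CPM was taken from TMM-scaled totals, and SE is the log2 fold change divided by the square root of F. RPKM divides CPM by the summed exon length of GENCODE vM1 (NCBIM37, used for lengths only). A gene with 0 counts in a whole group was compared with a floor of 3 counts per library, which covers counting error only.

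The genes and lists were chosen with earlier results of these data known. From the pathway lists, at most 3 genes with the largest rise and at most 3 with the largest fall past the threshold were named per line and comparison, together with genes needed beside them. Cyr61 and Yap1 were each given the 3 other genes of highest Pearson correlation over 9 libraries. Alternatives were DESeq2 1.42.0, RLE scaling, no scaling factors, no filter, a replicate block, at least 10 counts in every library, voom with quality weights (limma 3.58.1), only the 2 groups compared, each library left out, and RPKM by longest transcript. Scripts were tested on simulated data. Promoter windows came from RefSeq (GRCm38.p6), matched by symbol.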

Additional observations from a re-analysis of the deposited data

Results flagged for a closer look

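The change with fibroblasts differed between the lines in a joint edgeR fit, given as the log2 change in LLC1 minus that in 168FARN. For WT against alone the difference was -1.49 for Amotl2 (adjusted p = 0.00142), -2.78 for Ankrd1 (adjusted p = 2.32e-11), -1.12 for Axl (adjusted p = 0.0379), -0.77 for Ajuba (adjusted p = 1.34e-05) and -2.02 for Cyr61 (adjusted p = 7.07e-09). For sgPrrx1 against alone it was -1.90 for Ankrd1 (adjusted p = 1.82e-09), -0.40 for Ajuba (adjusted p = 0.00828) and -0.99 for Cyr61 (adjusted p = 2.28e-05). For sgPrrx1 against WT it was 0.88 for Ankrd1 (adjusted p = 6.33e-06), 0.37 for Ajuba (adjusted p = 0.00933) and 1.02 for Cyr61 (adjusted p = 1.85e-05). Ctgf gave -11.1, -7.27 and 3.83 in these 3 comparisons, of which the first 2 rest on 0 counts in 168FARN alone, depend on the prior count of the fit and are no bound. The difference of Axl was lost in 8 of the refits without 1 library, those without 168FARN alone replicate 2 or 3, 168FARN WT replicate 1, LLC1 alone replicate 1 or 2 or any one LLC1 WT library (adjusted p from 0.0554 to 0.120), and with a replicate block (adjusted p = 0.0506).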

How the results depend on the processing

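Of 1764 refits of the log2 fold changes of single genes, 1621 kept their direction and their side of the threshold, 55 gained a call, 31 lost one and 57 changed sign. The number of genes called in 168FARN stayed between 7 and 9 for WT against alone, 5 and 6 for sgPrrx1 against alone and 7 and 9 for sgPrrx1 against WT under every alternative, while 49.1% to 66.3%, 37.2% to 53% and 45.4% to 64% of all genes were called. In LLC1, WT against alone called 2 genes with DESeq2, RLE scaling or no scaling factors (17.7%, 9.11% and 10.4% of all genes), 5 with voom (58.6%) or with only the 2 groups compared (40.7%), and 0 to 5 when a library was left out (2.09% to 44.2%). LLC1 sgPrrx1 against alone called 0 without a filter (2.32%) or with only the 2 groups (0.215%), 7 with voom (48%) and 0 to 4 when a library was left out (0.398% to 26.7%), and sgPrrx1 against WT called 5 with voom (36.4%). The line difference called 7 genes with voom for sgPrrx1 against alone (41.2% of all genes), and 9 with voom (54.9%) and 4 to 8 with a library left out (14.9% to 44.5%) for sgPrrx1 against WT. The highest of these ranges came without LLC1 sgPrrx1 replicate 3, and voom gives an outlying library less weight, but the cause of each change was not tested.

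Signs also changed with every library kept. In LLC1 sgPrrx1 against WT, Yap1 was at -0.0067 with DESeq2, -0.0068 with RLE scaling, -0.038 with no scaling factors, -0.018 with at least 10 counts in every library, -0.012 with the replicate block and -0.0090 with only the 2 groups. Ajuba there was at -0.000857, -0.0019, -0.041, -0.013 and, with only the 2 groups, -0.0035 in the same order without the block. Cyr61 there was at -0.029 with no scaling factors and -0.11 with voom, and voom gave 0.16 for Wwtr1, 0.38 for Tead1, 0.10 for Amotl2 and 0.13 for Lats2. With voom the opposite signs of Cyr61 (adjusted p = 0.0297), Wwtr1 (adjusted p = 0.0359) and Tead1 (adjusted p = 0.0193) passed the threshold. For sgPrrx1 against alone in LLC1, voom gave 0.015 for Lats2 and no scaling factors gave -0.020 for Ajuba.

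With single libraries left out, 168FARN values ran from -0.12 to 0.37 for Axl in WT against alone, from -0.35 to 0.13 for Axl and from -0.42 to 0.022 for Yap1 in sgPrrx1 against alone, and from -0.49 to 0.019 for Axl in sgPrrx1 against WT. LLC1 values ran from -0.085 to 0.020 for Lats2 and from -0.067 to 0.016 for Ankrd1 in WT against alone, and from -0.043 to 0.21 for Yap1 and from -0.41 to 0.094 for Lats2 in sgPrrx1 against alone. In LLC1 sgPrrx1 against WT they ran from -0.087 to 0.15 for Yap1, -0.27 to 0.13 for Wwtr1, -0.38 to 0.36 for Tead1, -0.37 to 0.10 for Amotl2, -0.37 to 0.12 for Lats2, -0.018 to 0.052 for Ajuba and -0.12 to 0.11 for Cyr61. The line difference in sgPrrx1 against WT ran from -0.13 to 0.26 for Wwtr1 and from -0.18 to 0.55 for Tead1.

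Replicate numbers are shared between groups. Same-numbered libraries of 168FARN had a mean correlation of deviations of 0.00282, with 0 of 9 pairs over 0.1. In LLC1 the mean was 0.194, from -0.0743 to 0.522, with 7 of 9 pairs over 0.1, among them all 3 of alone with sgPrrx1. The highest was that of alone replicate 3 with sgPrrx1 replicate 3. Unlike numbers could be as close. Alone replicate 1 correlated at 0.247 with sgPrrx1 replicate 2 and at 0.163 with sgPrrx1 replicate 1. Alone replicate 2 correlated at 0.338 with sgPrrx1 replicate 1 and at 0.340 with sgPrrx1 replicate 2. These numbers may thus at most partly pair libraries, which the labels do not state. In LLC1 sgPrrx1 against alone the block kept the call of Cyr61 (adjusted p = 0.0485). Blocking on the replicate number, the genes called were 8, 6 and 9 in 168FARN, 1, 1 and 0 in LLC1 and 5, 5 and 4 for the line difference, in the order WT against alone, sgPrrx1 against alone and sgPrrx1 against WT. Of all genes, 63.2%, 49.1% and 59.4%, 7.99%, 2.96% and 0.0155%, and 32.4%, 14% and 22.1% were then called. The gene gained in 168FARN sgPrrx1 against WT was Wwtr1, at -0.17 (adjusted p = 0.0150). With the block, the line difference in sgPrrx1 against WT was -0.018 for Wwtr1 and -0.081 for Tead1.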
